A study of Mus musculus with 6 samples.

Results

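Classical monocytes were examined in single-cell transcriptomes of 2 groups whose only stated difference is the vector, Empty vector and Bmal1 WT. Both libraries are labelled with YUMM2.1, a mouse melanoma cell line, as their source, and the labels give no strain, age, treatment or tissue. The libraries also held 1351 lymphocytes with Cd3 UMIs, so that label does not describe every cell in them. Each group was 1 droplet library that pooled 3 replicates marked with hashtag antibodies, so the group and its library cannot be told apart. The monocytes were selected on measured UMIs, the unique molecules counted per gene, as Csf1r-positive and Ly6c2-positive cells with fewer than 5 UMIs of C1qa, C1qb and C1qc together and with none of Ace, Adgre4, Arg1, Nos2, Flt3, Cd3e, Cd3d, Ncr1 or Siglech. This rule found 130 cells among 6364 cells kept, 95 in the Empty vector library and 35 in the Bmal1 WT library, of 1065 Csf1r-positive cells in all.

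Classical monocytes leave the bone marrow in response to ligands of the receptor Ccr2, carry the surface protein Ly6C, and enter inflamed tissue and tumours. There they can mature into macrophages or take on functions of dendritic cells, including antigen presentation on MHC class II. Non-classical monocytes, which patrol vessels, carry less Ly6C and depend on the transcription factor Nr4a1.

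The replicates were told apart by the antibody oligonucleotides below, printed because every comparison between groups rests on them.
h1 (Empty vector): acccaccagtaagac
h7 (Empty vector): gagtctgccagtatc
h8 (Empty vector): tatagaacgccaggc
h3 (Bmal1 WT): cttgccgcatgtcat
h5 (Bmal1 WT): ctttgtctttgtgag
h9 (Bmal1 WT): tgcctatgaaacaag
Of the 95 and 35 monocytes, 89 and 31 carried exactly 1 hashtag. The Empty vector replicates held 40 (h1), 12 (h7) and 37 (h8) of these cells, and the Bmal1 WT replicates 19 (h3), 4 (h5) and 8 (h9). Summed monocyte UMIs per replicate ran from 55173 in h5 to 305840 in h8, so the 4 cells of h5 gave the least precise values. The sources used here do not say whether the hashtags mark separate animals, so p-values measure only the spread between these samples, which may be technical. The median monocyte held 7005 UMIs in the Empty vector library and 9720 in the Bmal1 WT library. The libraries shared 5 barcodes, and 0 of the monocytes were among them.

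The rule set how close its neighbours lay. Of the 130 monocytes, 15 had a single Ly6c2 UMI and 34 a single Csf1r UMI, while 123 had no C1q UMI and the highest held 4. Just outside, 7 cells failed only by their C1q UMIs, which ran from 5 to 38. A larger number failed only by a UMI of Ace or Adgre4 (99 Empty vector and 55 Bmal1 WT cells) or of Arg1 or Nos2 (129 and 44 cells).

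The label was checked against its 5 markers, Ly6c2, Ccr2, Lyz2 (lysozyme), Chil3 (a chitinase-like protein) and F13a1 (coagulation factor XIII A). All 5 were detected in 61 of 130 monocytes and at least 4 in 98; 2 cells held only the Ly6c2 that the rule demanded. Lyz2 was found in 90.8% of monocytes, Chil3 in 61.5% and F13a1 in 66.9% (median depth 7599 UMIs). In 1351 lymphocytes with Cd3 UMIs, which should lack these genes, the shares were 2.22%, 0.740% and 1.04% (median depth 5483 UMIs). These lymphocytes were chosen by at least 2 UMIs of Cd3e and Cd3d together and no Csf1r UMI. The lack of Csf1r may itself lower these shares. The 935 other Csf1r-positive cells also held them often, at 84.7%, 49.3% and 48.7% (median depth 9689 UMIs). Detection of these genes thus set the monocytes apart from lymphocytes far more than from other Csf1r-positive cells. After thinning to 3000 UMIs per cell, which left out 13 monocytes and 261 lymphocytes, Lyz2 remained in 90.6% of monocytes and 0.734% of lymphocytes. Ly6c2 and Ccr2 were less specific, since 35.7% and 25.6% of the lymphocytes held a UMI of them. Ly6c2 also has a near-identical neighbour, Ly6c1, with which its counts are uncertain.

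Lyz2 (chromosome 10, 117277331 to 117282321, GRCm38) was compared first. Its monocyte level in CPM (UMIs scaled to a common library total) was 7958, 7454 and 6337 in the Empty vector replicates h1, h7 and h8, and 5869, 5854 and 10150 in the Bmal1 WT replicates h3, h5 and h9. The 2 groups overlapped, with means of 7250 ± 830 and 7291 ± 2476 (SD, n = 3 each). F13a1 (chromosome 13, 36867178 to 37050244) stood at 531, 290 and 517 CPM in Empty vector and at 487, 634 and 981 CPM in Bmal1 WT monocytes. Chil3 (chromosome 3, 106147554 to 106167564) stood at 660, 928 and 1707 CPM against 967, 1160 and 3442 CPM. In both genes the highest replicate was h9 and the groups overlapped.

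**Figure D1:**
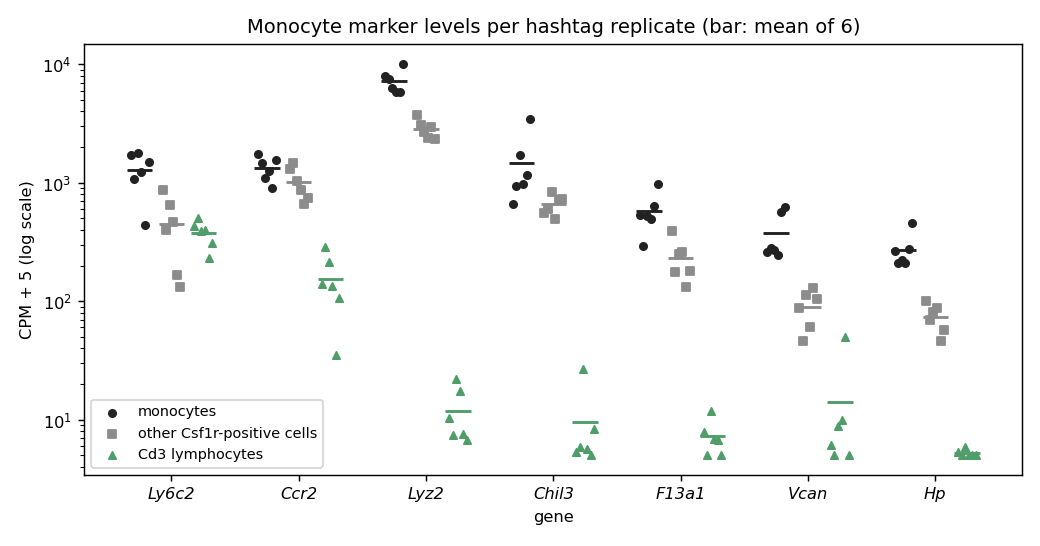
Levels of 7 monocyte markers (CPM plus 5, log axis) in monocytes, other Csf1r-positive cells and Cd3 lymphocytes; each point is 1 hashtag replicate and bars are means of 6. Lyz2 lay between 5854 and 10150 CPM in monocytes, above every replicate of the other sets, whereas Ly6c2 was also present in lymphocytes.

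Against the 935 other Csf1r-positive cells of the same libraries, the monocytes held more transcripts of Vcan, Hp and lysozyme and fewer of Spp1, Apoe and other macrophage genes. Because the rule chose these cells by their transcripts, the ratios are a description with no test. Of 1922 genes with at least 100 CPM on the higher side, 249 were higher in the monocytes and 173 lower in 6 of 6 replicates. Counted separately by the ratio of means, 35 were at least 2-fold higher and 53 at least 2-fold lower. Among the highest ratios were those of Vcan, a matrix proteoglycan of monocytes (369 ± 171 against 84.9 ± 31.5 CPM, SD, n = 6), and Hp, the haemoglobin-binding haptoglobin (268 ± 93.2 against 68.5 ± 19.95). Each was higher in 6 of 6 replicates. Cd93, Pdlim1, Ifitm6, Arhgap26, Mgst1, Slpi and Tppp3 followed with Lyz2, F13a1 and the rule gene Ly6c2, all between 2.50- and 3.00-fold (5 CPM added to both sides) and higher in 6 of 6. Id1 and Cxcl10 also ranked among the first 15 genes but were higher in only 4 of 6 replicates. Cxcl10, an interferon-induced chemokine, ranged from 20.9 CPM in h9 to 2839 CPM in h3.

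Among genes outside the rule, the lowest ratios belonged to Plet1, Mmp12 (macrophage elastase), Retnla, Ccl24, Actn1, Cd63, Spp1 (osteopontin), Ccl17, Cxcl3 and Ccl5. Plet1 had no monocyte UMI against 267 ± 163 CPM in the other cells. Spp1 stood at 256 ± 209 against 2348 ± 888 CPM, lower in 6 of 6 replicates. Apoe, a lipid carrier made by macrophages, stood at 327 ± 109 against 1487 ± 552 CPM and was lower in 6 of 6. Arg1, C1qa, C1qb, C1qc and Ace were also among the 15 lowest, as the rule required.

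Other Csf1r-positive cells were also compared by class. Classes were assigned in order: at least 5 C1q UMIs (C1q-high), then a UMI of Ace or Adgre4, then a UMI of Arg1 or Nos2. A cell placed in an earlier class was left out of the later ones. In the 322 cells of the Ace or Adgre4 class, mean Lyz2 was 5533 CPM. Mean Plac8, a cysteine-rich protein of myeloid and lymphoid cells, was 6071 CPM there against 4253 CPM in the monocytes. Mean Vcan was 154 CPM in these cells and 369 CPM in the monocytes. It was 28.8 CPM in the 173 C1q-high cells and 137 CPM in the 298 cells of the Arg1 or Nos2 class.

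Markers of other cell types were found at very different levels in the monocytes. The lists include genes that the rule held at 0 or low, so these did not check the label. They are Ace and Adgre4 (non-classical), C1qa, C1qb and C1qc (macrophage), Flt3 and Siglech (dendritic cell) and Cd3e, Cd3d and Ncr1 (T or NK cell). Part of the counts at 0 and of the contrast in macrophage markers was therefore set by the rule. The non-classical monocyte markers, part of which classical monocytes also transcribe, summed to 1498 to 2538 CPM in Empty vector and 929.96 to 1460.4 CPM in Bmal1 WT, with 2 of 10 at 0. The macrophage markers summed to 781 to 1151 and 678 to 1341 CPM, with 2 of 14 at 0, against 3161 to 5402 and 5847 to 7972 CPM in the other Csf1r-positive cells. The dendritic cell markers summed to 325 to 1088 and 115 to 406 CPM, with 5 of 11 at 0. The neutrophil marker S100a9 had no UMI in any replicate and 7 of 11 neutrophil markers were at 0, with a sum of 136 to 159.5 and 98.5 to 239.9 CPM. Of the T or NK cell markers 6 of 11 were at 0, with a summed level of 14.5 to 79.6 CPM in Empty vector and 0 to 30.8 CPM in Bmal1 WT. Of the B cell markers 5 of 7 were at 0, Cd79a and Ms4a1 among them, with a summed level of 14.5 to 73.0 and 0 to 62.6 CPM. The melanoma markers summed to 14.5 to 46.4 and 20.9 to 67.7 CPM, of which Mitf, also transcribed in myeloid cells, made up the larger share. In all, 22 Empty vector and 7 Bmal1 WT monocytes held at least 2 UMIs of B cell, fibroblast, melanoma or T or NK cell markers.

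The monocytes differed among themselves in MHC class II transcripts. A UMI of H2-Ab1, the beta chain of an MHC class II molecule (chromosome 17, 34257689 to 34269419), was found in 48 of 130 monocytes, and 36 of these held more than 2. The other 82 cells had none. The 48 cells did not match the label well: of its 5 markers, Lyz2, Chil3 and F13a1 were lower in them in 6 of 6 replicates and Ly6c2 in 5 of 6, and only Ccr2 was higher, in 6 of 6. This split was chosen after the values had been seen, so its values are a description with no test. H2-Ab1 UMIs also occurred in 11.03% of the lymphocytes, so a cell with 1 or 2 may hold free RNA.

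The 2 sets of cells differed most in antigen presentation genes. Cd74, the chaperone of MHC class II, stood at 8624 ± 4132 CPM in monocytes with H2-Ab1 and at 171 ± 122 CPM in those without (SD, n = 6). H2-Aa, the alpha chain, stood at 4279 ± 2681 against 25.7 ± 43.6 CPM. Ciita, the transcriptional co-activator that switches on MHC class II genes, stood at 153 ± 109 against 0.948 ± 2.32 CPM, and H2-DMb1, a peptide-loading subunit, at 711 ± 160 against 49.5 ± 15.5 CPM. Some dendritic cell markers moved with them. The integrin Itgax stood at 348 ± 167 against 25.6 ± 22.7 CPM (higher in 6 of 6). The lectins Clec10a and Cd209a stood at 199 ± 180 against 15.1 ± 17.3 CPM and 103 ± 88.4 against 0.948 ± 2.32 CPM (each higher in 5). Zbtb46, on the same list, was near the floor, at 6.76 ± 7.88 against 0 CPM (higher in 3). Of the macrophage markers, Mrc1 was also higher, at 102 ± 171 against 7.30 ± 11.3 CPM (higher in 5). Spp1 was lower, at 46.0 ± 41.0 against 389 ± 388 CPM. Mgl2 and Ccl17 were detected unevenly, and 1 cell supplied 54.1% of the Mgl2 UMIs and 85.2% of the Ccl17 UMIs. Ccr7 and Fscn1, markers of mature dendritic cells, had no UMI in either set.

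The opposite pattern held for the early monocyte genes. Lyz2 stood at 2705 ± 1635 CPM in monocytes with H2-Ab1 and at 9869 ± 2313 CPM in those without. Hp stood at 59.6 ± 72.2 against 386 ± 110 CPM and Vcan at 104 ± 61.7 against 513 ± 236 CPM, both lower in 6 of 6 replicates. Counted per cell, Lyz2 was missing from 10 of the 48 cells with H2-Ab1 and from 2 of the 82 without. Median depths were 7871 and 7388 UMIs. Csf1r itself stood at 407 ± 98.8 and 415 ± 152 CPM.

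**Figure D2:**
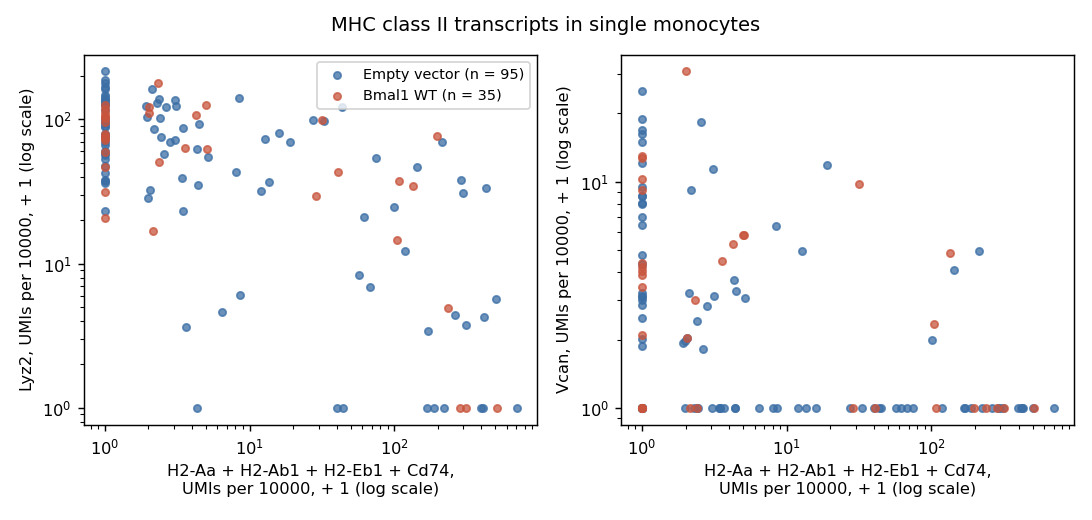
Each point is 1 of the 130 monocytes, with the summed UMIs of H2-Aa, H2-Ab1, H2-Eb1 and Cd74 per 10000 UMIs plus 1 on the x axis and Lyz2 (left) or Vcan (right) per 10000 UMIs plus 1 on the y axis, both log axes. In 49 cells no class II UMI was found, and the cells that lack Lyz2 lie mostly at high class II levels.

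The share of monocytes with H2-Ab1 was 45.0%, 41.7% and 32.4% in the Empty vector replicates h1, h7 and h8, and 42.1%, 50% and 12.5% in the Bmal1 WT replicates h3, h5 and h9. The groups overlapped, at 39.7% ± 6.51 and 34.9% ± 19.8 (SD, n = 3 each).

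The windows around the starts of H2-Aa and H2-Eb1 are shown because both of these class II genes were higher, in 6 of 6 replicates, in the monocytes with H2-Ab1. They are RefSeq sequences of GRCm38.p6, 5′ to 3′ along each gene, at chr17:34287774-34288073 (minus strand) and chr17:34305617-34305916 (plus strand), with matches to CCAAT or its reverse complement ATTGG, the letters of the Y box of class II promoters, in capitals.
H2-Aa: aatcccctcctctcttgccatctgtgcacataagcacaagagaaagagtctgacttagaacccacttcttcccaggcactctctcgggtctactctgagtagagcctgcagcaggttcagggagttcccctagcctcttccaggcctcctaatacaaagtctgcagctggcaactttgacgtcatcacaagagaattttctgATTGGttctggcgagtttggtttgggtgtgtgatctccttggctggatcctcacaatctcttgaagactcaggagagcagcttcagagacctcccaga
H2-Eb1: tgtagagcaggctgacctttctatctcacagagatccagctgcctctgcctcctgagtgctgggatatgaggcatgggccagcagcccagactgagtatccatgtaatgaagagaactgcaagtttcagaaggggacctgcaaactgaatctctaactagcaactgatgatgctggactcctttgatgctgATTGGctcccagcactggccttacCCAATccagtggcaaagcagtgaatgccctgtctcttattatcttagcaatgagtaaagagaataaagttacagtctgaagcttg
H2-Aa held 1 match, starting at base 203 of its 300, and H2-Eb1 held 1 in each orientation, the ATTGG starting at base 192. Such letters occurred in 37.4% of the 32851 promoter windows in the same table, so a match describes the window and does not mark a bound site. H2-Ab1 was not matched in that table.

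The design also asked whether the monocytes differed in number between Bmal1 WT and Empty vector. They made up 12.9%, 12.2% and 17.1% of Csf1r-positive cells in h1, h7 and h8, and 9.79%, 4.40% and 12.7% in h3, h5 and h9. The mean was 14.1% ± 2.65 in Empty vector and 8.96% ± 4.21 in Bmal1 WT (SD, n = 3 each). The highest Bmal1 WT replicate lay above the lowest Empty vector one, and the difference of -5.13 percentage points did not pass the test (two-sided exact permutation test, p = 0.2, adjusted over 2 shares 0.4). With 3 replicates against 3, the smallest p this test allows is 0.1. Of all cells, the monocytes made up 2.62% ± 0.810 and 1.88% ± 0.928 (exact permutation p = 0.4, adjusted 0.4). Without h5, which held 4 monocytes, the difference in the share of Csf1r-positive cells was -2.85 points.

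**Figure D3:**
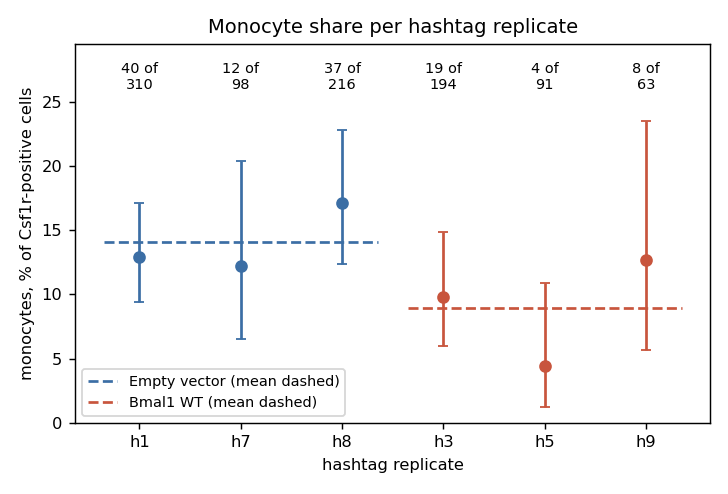
Monocytes as a percentage of Csf1r-positive cells in each hashtag replicate, with exact binomial 95% intervals (counting error only) and group means as dashed lines. The 3 Empty vector replicates lie between 12.2% and 17.1% and the 3 Bmal1 WT replicates between 4.40% and 12.7%.

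Transcript levels of the monocytes were then compared between the groups, with UMIs summed per replicate. Arntl, which encodes Bmal1, gave 7 UMIs in all monocytes together, with 6.63, 29.0 and 6.54 CPM in Empty vector and 6.16, 0 and 0 CPM in Bmal1 WT, so its level could not be compared at this depth. No gene was called: 0 of 3197 genes tested (0%) had an adjusted p under 0.05 in edgeR's quasi-likelihood test, and the smallest adjusted p was 0.658. Without adjustment, 233 genes had a p under 0.05, of which 112 were higher in Bmal1 WT (3.5%) and 121 lower (3.78%). The count was also 0 with DESeq2, whose smallest adjusted p of 0.0543 lay just above the threshold, and with limma, whose smallest was 0.503. The replicates of the groups did not overlap for 243 genes higher (7.6%) and 255 lower (7.98%). On simulated data for this comparison, 18% of genes changed 2-fold and 77% of genes changed 4-fold were called, so a 2-fold difference would mostly be missed. The simulation set the spread between replicates by expression level alone. It did not model single cells that supply many UMIs of a gene, so the 77% may be too high for these data.

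The genes of smallest unadjusted p are given as values that did not pass the adjusted threshold. Id1, an inhibitor of DNA-binding helix-loop-helix proteins (chromosome 2, 152736251 to 152737410), stood at 43.1, 0 and 32.7 CPM in h1, h7 and h8 and at 154, 254 and 198 CPM in h3, h5 and h9. The groups did not overlap (log2 fold change 2.55 ± 0.48 SE, unadjusted p = 0.000414, adjusted p = 0.658 in edgeR). The gene was detected in 13 of 89 Empty vector and 8 of 31 Bmal1 WT monocytes, so few cells carried it. Ifitm1, an interferon-induced transmembrane protein (chromosome 7, 140967221 to 140969825), went the other way, at 149, 131 and 154 CPM against 24.6, 0 and 31.3 CPM. Its groups did not overlap (log2 fold change -2.70 ± 0.49 SE, unadjusted p = 0.000311, adjusted p = 0.658), and 1 cell gave 32.4% of its UMIs.

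H2-K1, an MHC class I heavy chain (chromosome 17, 33996017 to 34000347), was detected in every one of the 89 and 31 monocytes. It stood at 2030, 1929 and 2073 CPM in Empty vector and 1201, 1178 and 741 CPM in Bmal1 WT, with no overlap (log2 fold change -0.95 ± 0.21 SE, adjusted p = 0.658 in edgeR). Its reads can be shared with near-identical class I genes. Nfkbiz, a regulator of NF-kappaB target genes, stood at 79.6, 189 and 137 CPM against 259, 290 and 480 CPM (log2 fold change 1.45 ± 0.38 SE, adjusted p = 0.658). Mt1, a metallothionein, stood at 229, 43.5 and 219 CPM against 357, 852 and 647 CPM (log2 fold change 1.72 ± 0.47 SE, adjusted p = 0.658). Its values in h5 and h9 came largely from the 3 cells with H2-Ab1 in these replicates, whose Mt1 stood at 1808 and 2599.9 CPM. In the monocytes without H2-Ab1, Mt1 stood at 239, 56.3 and 237 CPM against 379.8, 127 and 205 CPM, which overlapped, and the log2 fold change was 0.34. Il2rg, the common gamma chain of cytokine receptors, stood at 139, 102 and 150 CPM against 55.4, 36.2 and 20.9 CPM (log2 fold change -1.73 ± 0.41 SE, adjusted p = 0.658). In the other Csf1r-positive cells, H2-K1, Mt1 and Il2rg moved the same way without overlap, with log2 fold changes of -0.44, 0.91 and -0.75. Nfkbiz did not (-0.11), and none of them passed the adjusted threshold in edgeR there.

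The remaining genes with higher values in Bmal1 WT were Rpl11, Lamtor2, Txn1, Rps20, Rpl10, Gapdh, S100a6, Ftl1 and S100a11, with log2 fold changes of 0.60 to 1.31. Those with lower values were Hivep3, Sema4d, Med13l, Dusp5, Stk10, Msmo1, Plekhm3, Rictor and Sertad1, with log2 fold changes of -2.18 to -1.02. In none of the 18 did the adjusted p pass. Their replicates did not overlap, which the choice by smallest p favours, beside 7.6% (higher) and 7.98% (lower) of all genes tested. In the other Csf1r-positive cells, all but Txn1, S100a6, Dusp5, Stk10, Plekhm3 and Sertad1 moved the same way without overlap. Of 9088 genes tested there, 694 were higher and 810 lower without overlap.

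**Figure D4:**
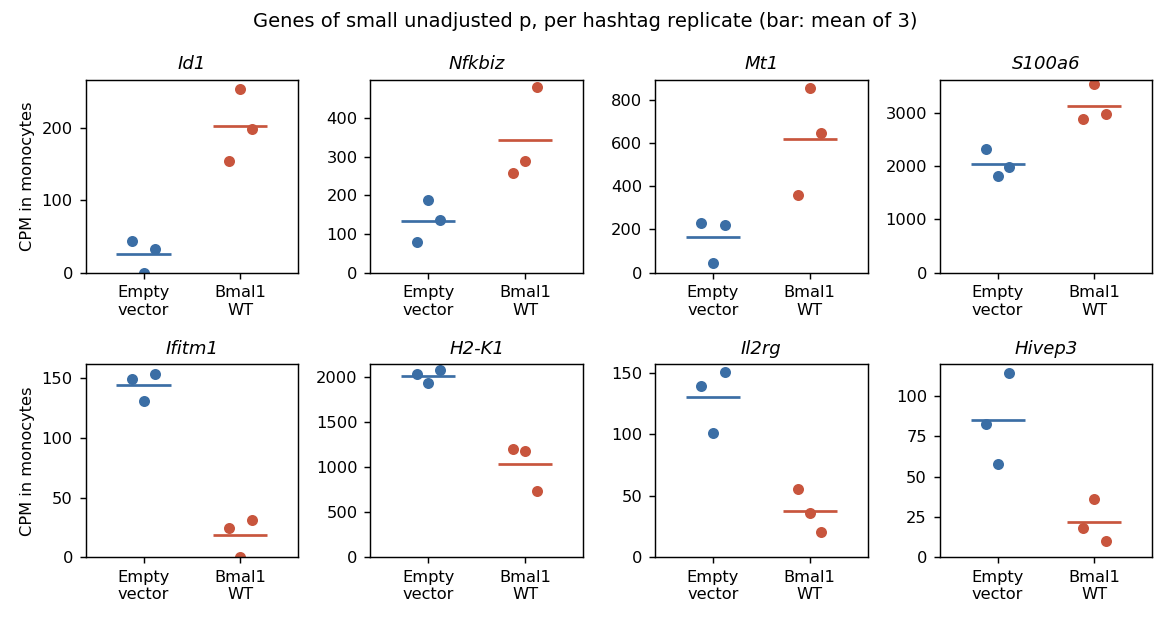
Levels in monocytes (CPM, linear axes from 0) of 8 genes of small unadjusted p; each point is 1 hashtag replicate and bars are group means of 3. The groups do not overlap in these genes, Id1 reaching 254 CPM in Bmal1 WT against 43.1 CPM in Empty vector, but none passed the adjusted threshold.

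The same test on the other Csf1r-positive cells gave 0 calls among 9088 genes (0%). There, 441 genes were higher (4.85%) and 509 lower (5.6%) by the unadjusted p, and DESeq2 found 40 genes past the adjusted threshold. Whether the group difference was particular to monocytes was tested as an interaction of cell set and group with the hashtag as a block. It gave 0 calls among 3197 genes (0%), and 123 (3.85%) passed without adjustment. Id1 had the smallest p, with a difference of 3.11 ± 0.54 SE on the log2 scale between its fold change in monocytes (2.55) and that in the other cells (-0.42), and its adjusted p was 0.319. For Ifitm1 the difference was -2.63 ± 0.55 SE (adjusted p = 0.769), with a log2 fold change of -0.02 in the other cells.

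Gene lists were described by counts and medians beside those of all genes tested, of which 1426 had higher and 1771 lower values in Bmal1 WT, with a median log2 fold change of -0.06. Ribosomal protein genes, a list added after their values had been seen, were higher in Bmal1 WT in 79 of 80 members, 35 of them at an unadjusted p under 0.05, with a median of 0.39. Their share of UMIs was 10.8%, 10.5% and 10.2% in Empty vector monocytes and 11.97%, 14.1% and 14.4% in Bmal1 WT monocytes. The shift was not limited to monocytes: the share was 11.9% to 13.7% against 15.03% to 15.8% in the other Csf1r-positive cells and 17.7% to 18.9% against 20.7% to 23.1% in lymphocytes. Its part in the other results was not tested.

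Interferon-stimulated genes were lower in Bmal1 WT in 34 of 37 members tested, with a median of -0.47, and 1 member, Irf7, had an unadjusted p under 0.05. Irf7, the regulator that amplifies the interferon response, stood at 252, 261 and 255 CPM in Empty vector and 136, 217 and 62.6 CPM in Bmal1 WT. Ifitm3 and Ly6e stood at 2338 ± 435 against 2226 ± 298 and 1730 ± 140 against 1331 ± 156 CPM. The summed level of the list overlapped, from 8396 to 17310 CPM in Empty vector and from 5988 to 16074 CPM in Bmal1 WT. Without h9 the median was -0.17 and without h3 it was -1.004. In the other Csf1r-positive cells the median was -0.86, with 40 of 40 members lower. There, 27 of the 40 were lower at an unadjusted p under 0.05 in edgeR, beside 5.6% of all genes tested, and 0 passed the adjusted threshold.

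Genes of MHC class I and peptide loading were lower in 13 of 15 members, with a median of -0.23, and H2-K1, H2-Q7 and B2m had an unadjusted p under 0.05. B2m, the invariant light chain, stood at 4508 ± 769 against 3062 ± 822 CPM. MHC class II genes were lower in 7 of 8 members, with a median of -0.49, and none had an unadjusted p under 0.05. Cd74 stood at 4175 ± 2953 against 2518 ± 708 CPM, the highest replicate being h7 with 7541 CPM. Without h7 the median of the list was -0.06, and without h9 that of the class I list was 0.03. The dendritic cell markers Cd209a and Mgl2 had lower values in Bmal1 WT, at 66.8 ± 32.7 against 13.7 ± 15.7 and 206 ± 300 against 6.16 ± 10.7 CPM, and their groups overlapped. In the other Csf1r-positive cells, class I genes were lower in 14 of 16 members (median -0.29) and class II genes higher in 7 of 10 (median 0.05).

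Granule, lysosome and antimicrobial genes were higher in 17 of 22 members, with a median of 0.21. S100a4, S100a6, S100a10 and S100a11, calcium-binding proteins, and Cyba and Ncf4, subunits of the NADPH oxidase, had higher values at an unadjusted p under 0.05. Cybb, the catalytic subunit of the same oxidase, had a lower value. Psap, a lysosomal saposin precursor, stood at 4702 ± 689 against 4273 ± 637 CPM. Inflammatory cytokine genes were higher in 8 of 10, with a median of 0.18 that was -0.04 without h7 and 0.72 without h8, and Il1b stood at 2061 ± 125 against 2184 ± 123 CPM. Pattern-recognition and Fc receptor genes were higher in 12 of 16, with a median of 0.12 (-0.04 in the monocytes without H2-Ab1), and only Tyrobp, a signalling adaptor, had an unadjusted p under 0.05.

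Monocyte transcription factor genes were lower in 18 of 22 members, with a median of -0.25. Klf2 and Zeb2 had an unadjusted p under 0.05, at 601 ± 272 against 210 ± 167 and 852 ± 120 against 602 ± 53.6 CPM. Cebpb, a factor of myeloid differentiation, stood at 4151 ± 1768 against 3919 ± 774 CPM. Of the non-classical monocyte markers 0 of 4 tested members were higher, with a median of -1.08, Pou2f2 and Cx3cr1 having an unadjusted p under 0.05. Cx3cr1, the fractalkine receptor, stood at 365, 305 and 141 CPM against 185, 18.1 and 41.7 CPM, and the groups overlapped. Classical markers were higher in 6 of 12 members tested, with a median of -0.02, which was -0.10 to 0.24 with 1 replicate left out. In the other Csf1r-positive cells, the transcription factor genes were lower in 23 of 24 members (median -0.38). There, 5 of 8 non-classical and 2 of 12 classical markers were higher (medians 0.12 and -0.41).

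Heat shock and immediate early genes were lower in 13 of 22, a share close to that of all genes, with a median of -0.20 that turned to 0.01 without h8 and 0.06 without h9, and Fos, Jund and Egr1 had an unadjusted p under 0.05. Of the clock genes 5 were tested, with a median of -0.10, and 0.04 without h5. Nfil3, a clock output repressor, stood at 289, 131 and 242 CPM in Empty vector and 437, 399 and 459 CPM in Bmal1 WT, with no overlap. Bhlhe40, a repressor of clock activators, stood at 607, 1073 and 804 CPM against 579, 526 and 177 CPM, also with no overlap, and neither passed the adjusted threshold. Among glucocorticoid-responsive genes, lower in 7 of 9 with a median of -0.36, Mt1 had higher values and Sgk1 and Tsc22d3 lower values at an unadjusted p under 0.05. The log2 fold change of Tsc22d3, a glucocorticoid-induced leucine zipper, went from -0.94 to -0.40 in the monocytes without H2-Ab1.

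Chemokine genes were lower in 8 of 12, with a median of -0.37 that turned to 0.19 without h1. Ccrl2, a chemerin receptor on the same list, had higher values (121 ± 57.4 against 363 ± 156 CPM). In the monocytes without H2-Ab1, Ccrl2 stood at 165, 0 and 195 CPM against 169.9, 95.6 and 345 CPM, which overlapped, and its log2 fold change went from 1.38 to 0.56. A single cell supplied 58.2% of the UMIs of Ccl7. Genes of the monocyte-to-macrophage transition were higher in 9 of 12, with a median of 0.31, of which Apoe had a lower value at an unadjusted p under 0.05 (411 ± 85.4 against 242 ± 31.8 CPM). In the monocytes without H2-Ab1, Apoe stood at 296, 563 and 284 CPM against 359.8, 478 and 256 CPM, and its log2 fold change went from -0.78 to -0.02. Glycolysis and hypoxia genes were lower in 14 of 24 and trafficking and adhesion genes in 10 of 18, with medians of -0.08 and -0.05, shares close to that of all genes, and the first median turned to 0.01, 0.26 and 0.09 without h5, h8 and h9. Of the cell cycle genes 4 of 5 tested were lower, with a median of -0.13 (0.06 without h7), and Pcna had an unadjusted p under 0.05. Of the macrophage markers 2 of 4 were higher, with a median of -0.04 (-0.15 to 0.30 with 1 replicate left out).

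**Figure D5:**
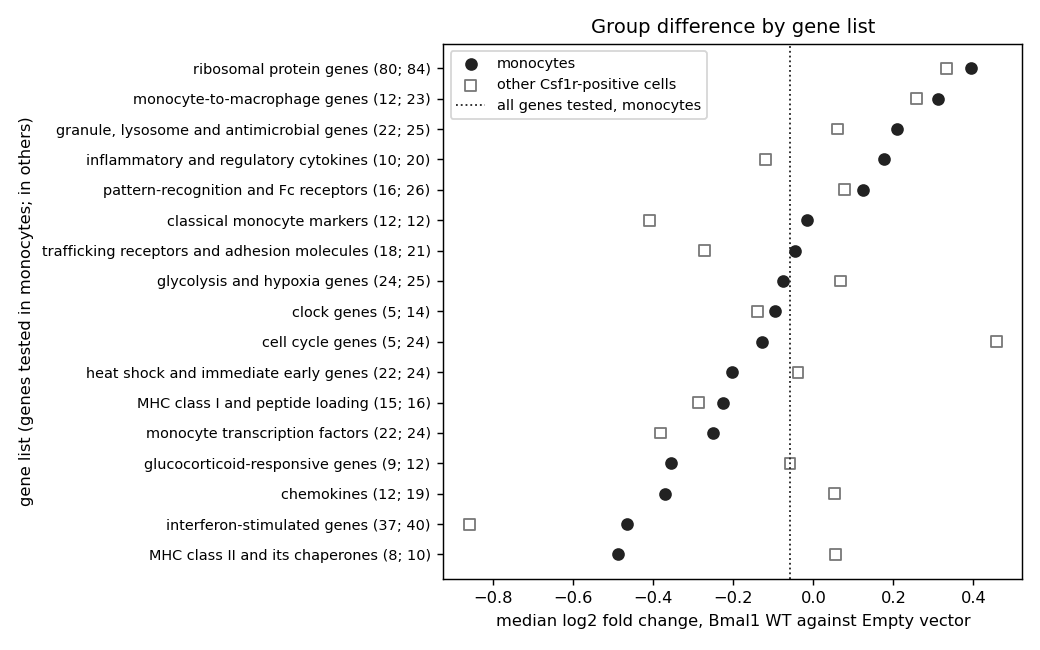
Median log2 fold change of each gene list with at least 5 genes tested in monocytes (Bmal1 WT against Empty vector) in monocytes (filled circles) and other Csf1r-positive cells (open squares), with the number of genes tested in each; the dotted line is the median of all genes tested in monocytes, -0.06. Of the lists plotted, ribosomal protein genes lie highest, at 0.39 in monocytes, and MHC class II and interferon-stimulated genes lowest, at -0.49 and -0.47.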

How the data were processed

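The authors deposited raw UMI counts per gene and barcode, made with Cell Ranger 6.1.2 per the file headers (mm10 per the submitters' processing notes) and filtered to barcodes called as cells. The files deposited for Bmal1 bHLH held the same values as Bmal1 WT and were not used. Barcodes with at least 200 genes and at most 20% mitochondrial UMIs were kept. Hashtags were assigned with a 2-component Gaussian mixture on log counts per library (scikit-learn 1.9.0). Cells with several hashtags entered no replicate, and no other doublet removal was applied. UMIs were summed per replicate, scaled by total UMIs, and genes with at least 50 UMIs were tested with edgeR 4.0.16 (quasi-likelihood, Benjamini-Hochberg at 0.05, SE from the F statistic). No test of a rule gene is reported. DESeq2 1.42.0 and limma 3.58.1 were alternatives, and the step was tested on simulated data with 100 genes changed at each of 2 fold sizes. Gene positions came from GENCODE (GRCm38). Named genes were the 12 of smallest unadjusted p per direction, list genes with unadjusted p under 0.05, the 15 highest and 15 lowest ratios to other Csf1r-positive cells (5 CPM added), and the highest-level members of each list. Mitochondrial, Gm and Rik genes were left out of the first and the ratio rules. The cells, lists and rules were chosen with earlier results of these data known. Intervals cover counting error only. Among the genes these rules name, 1 is not reported here.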

Additional observations from a re-analysis of the deposited data

How the results depend on the processing

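The difference in the monocyte share of Csf1r-positive cells stayed negative in all 14 alternatives, from -7.51 to -2.85 percentage points, with exact permutation p between 0.1 and 0.4, and leaving out 1 replicate at a time gave -7.00 to -2.85. The difference in the share of all cells ran from -1.55 to -0.21, and leaving out 1 replicate gave -1.19 to -0.21. Without any filter on genes, edgeR called 28 genes in monocytes (12 higher and 16 lower). With the same setting it called 21 in other Csf1r-positive cells and 20 for the difference between cell sets. Many genes with few UMIs entered there. Among the 28 were Id1, Ifitm1, H2-K1, Nfkbiz, Mt1, Ccrl2, S100a11, Fos, Jund, Klf2, Mgl2 and Ccl7. In Mgl2 and Ccl7, 1 cell supplied 54.1% and 58.2% of the UMIs. DESeq2 called 40 genes in the other cells. At an unadjusted p under 0.05 the counts were 233 and 950. Every other alternative called 0 genes, including monocytes without H2-Ab1 UMIs (0 of 2180, an alternative added after the data had been seen) and leaving out each replicate (0 to 0 genes). In 882 recalculations of 51 named genes the direction was kept in 882. These genes were chosen by small p in the same cells, which favours a kept direction, so the count is no independent support. Without the cells holding H2-Ab1 the log2 fold change of Mt1 moved to 0.34, of Ccrl2 to 0.56, of Apoe to -0.02 and of Tsc22d3 to -0.40. Medians of the gene lists kept their sign in 317 of 357; that of MHC class I ran from -0.47 to 0.03 and that of interferon-stimulated genes from -1.004 to -0.17. The small number of monocytes in h5 and h9 limits the precision of every comparison between groups.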
